A study of Mus musculus with 8 samples.

Results

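The genes described here are 36 transcripts of the interferon response and of class I antigen presentation, followed across 8 arrays from mouse T cell leukemia lines that lack E2a. Members were taken by gene symbol, with the probe set of the highest mean log2 intensity standing for each gene, and 34 of the 36 were measured among 18193 named genes. Isg15, whose probe set carries another symbol as well, and Ifi44, which was not matched to a probe set under that symbol, were not analysed here. The samples were 2 arrays in each of 4 groups. The E2a-/- line and the E2a-/-Lef1F/F line, called the Lef1F/F line below, were each infected with the retrovirus MigR1, which makes GFP, or with MigR1-Cre, which makes Cre as well. All 8 samples were therefore E2a-/-, on the FVB/NJ strain, infected, and sorted for GFP 72 hours after infection. In the Lef1F/F line loxP sites flank the part of Lef1 that encodes its DNA binding domain, whereas the E2a-/- line has no such sites and measures Cre alone. Each genotype is a single leukemia line, so that genotype and line cannot be told apart, and no uninfected cells were arrayed. The labels do not say that the arrays of a group came from separate cultures, and p-values then measure only the spread between these arrays, which may be technical.

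Type I interferons bind a receptor that acts through the JAK kinases and a complex that includes STAT2 and IRF9, which binds the interferon-stimulated response element (ISRE), while interferon gamma acts at the gamma-activated site (GAS). The induced genes encode sensors of viral RNA, nucleases and translation inhibitors, GTPases, restriction factors, chemokines, and the immunoproteasome and peptide transporter that feed class I molecules. Several sensors act upstream of interferon production as well as downstream of it.

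Promoter sequences are shown because the ISRE is the element through which this gene class is known, and they were chosen to include genes that were higher (Oas1a, Ifit1, Gbp2), lower (Bst2) or not called (Oas3, Ifit3, B2m) in the Lef1F/F line. RefSeq promoters (GRCm38.p6, the C57BL/6J reference, not the FVB/NJ strain of these cells) were present for 27 of the 36 genes, and the 250 bases before each start site were searched on both strands for the ISRE core GAAANNGAAA (TTTCNNTTTC on the other strand) and for the GAS core TTCNNNGAA, which reads the same on both strands. Of the 27 genes, 12 (44.4%) held the ISRE core, compared with 3.46% of all 27025 genes with a promoter in the table. The GAS core was held by 6 of the 27 (22.2%), compared with 8.13% of all genes. In the stretches of 80 bases below, written along the transcribed strand, capitals mark the ISRE core on either strand.
Bst2, chr8:71537555-71537634, minus strand: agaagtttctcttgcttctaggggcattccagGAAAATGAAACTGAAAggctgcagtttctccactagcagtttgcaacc
Oas1a, chr5:120907526-120907605, minus strand: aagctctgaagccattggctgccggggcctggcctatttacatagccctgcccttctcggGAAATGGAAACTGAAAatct
Ifit1, chr19:34640759-34640838, plus strand: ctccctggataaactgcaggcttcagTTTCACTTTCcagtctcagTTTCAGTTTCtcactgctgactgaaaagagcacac
Gbp2, chr3:142620569-142620648, plus strand: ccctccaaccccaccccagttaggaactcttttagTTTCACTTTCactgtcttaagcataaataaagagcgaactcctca
Oas3, chr5:120777690-120777769, minus strand: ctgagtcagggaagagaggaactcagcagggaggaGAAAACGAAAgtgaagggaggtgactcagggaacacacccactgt
Ifit3, chr19:34583355-34583434, plus strand: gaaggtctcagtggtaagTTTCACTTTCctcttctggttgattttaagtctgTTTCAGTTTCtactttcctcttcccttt
B2m, chr2:122147513-122147592, plus strand: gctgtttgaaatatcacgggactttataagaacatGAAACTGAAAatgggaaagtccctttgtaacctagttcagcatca
In Bst2 and Oas1a the capitals run through 2 overlapping cores, and in Ifit1 and Ifit3 there are 2 separate ones. The GAS core of Bst2 also overlaps its ISRE cores. A match is a description of these letters and not a site of binding.

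RMA intensities of the 34 genes lay between 49.3 and 8908, and the median over all probe sets and arrays was 89.8. B2m, which encodes the invariant chain of class I molecules, lay between 8267 and 8908, and Psmb8, a catalytic subunit of the immunoproteasome, between 3519 and 4350. Irf1, which encodes a transcription factor, lay between 565 and 635. In contrast, 4 genes were below 89.8 in all 8 arrays, among them Irf7, the amplifier of interferon induction (72.4 to 79.8), and Cxcl10, a chemokine for T cells (56.6 to 75.8). RMA compresses differences at such low intensities, so a fold difference there is a low estimate. The interferon genes themselves were near the bottom of the scale. Of 6 measured ligand genes (Ifnb1, Ifna1, Ifna2, Ifna4, Ifna11 and Ifng), intensities were between 44.6 and 102, and 5 of the 6 were below 89.8 in every array.

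Lef1 served as the check of the labels. Its brighter probe set read 6918 and 6126 in the MigR1 arrays of the Lef1F/F line and 1903 and 1678 in the MigR1-Cre arrays, whereas the 4 arrays of the E2a-/- line lay between 3008 and 3416. Groups follow the sample titles and source names, since the label field for the virus gives MigR1 for the MigR1-Cre arrays of the E2a-/- line and MigR1-Cre for the MigR1 arrays of the Lef1F/F line. The Lef1 values match the titles in the Lef1F/F line. In the E2a-/- line, which has no loxP sites, Lef1 differed by -0.05 ± 0.09 between the groups and cannot check which virus an array had. In the Lef1F/F line, array 1 of each virus resembled array 1 of the other (r = 0.998 over all probe sets) more than the other array of its own group (r = 0.994). The T cell genes Cd3d, Cd3e and Cd3g read at least 773 in all arrays, and 6 of 9 measured T cell markers were higher in the Lef1F/F line (summed intensity 28775 to 36483, compared with 26781 to 27695). Among all named genes 12.9% were higher and 12.1% lower in that line, and the marker counts here stand beside these shares. None of 8 myeloid and 5 natural killer cell markers passed the test between the lines (0 with a limma p before adjustment under 0.05), and these lists did not exceed 136 and 92.2 in any array. Of 5 B cell markers (55.5 to 135), Blnk was lower by 0.41 on the log2 scale, and of 4 erythroid markers (56.2 to 274), Klf1 was lower by 0.19. Of 6 dendritic and plasmacytoid cell markers, whose summed intensity was 828 to 857 in the E2a-/- line and 465 to 502 in the Lef1F/F line, the shift lay in Tcf4, an E protein gene (416 to 438 and 48.7 to 68.0), whereas Siglech, which defines plasmacytoid cells, was between 83.2 and 92.2 throughout. The 7 stromal markers summed to 4776 to 5037 and 961 to 1088, mostly through Col1a2 (4131 to 4377 and 252 to 311), with Col1a1 and Col3a1 below 89.8 in every array. Of the 7, 1 passed as lower in the Lef1F/F line and 1 as higher, the latter by 0.45 on the log2 scale. The part of these markers in the differences between lines was not tested.

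The deletion of Lef1 by Cre was the question of the experiment, and among the interferon genes only Rtp4 passed the test in the Lef1F/F line, with a lower level under MigR1-Cre. MigR1-Cre and MigR1 arrays were compared with limma on log2 intensities, with p-values adjusted (Benjamini-Hochberg) over all 45037 probe sets and a threshold of 0.05. Rtp4 encodes a Golgi chaperone of chemoreceptors that is also an interferon-induced inhibitor of flavivirus replication. It read 131 and 138 in the MigR1 arrays of the Lef1F/F line and 90.1 and 90.7 in the MigR1-Cre arrays, while in the E2a-/- line it read 62.4 and 65.2 with MigR1 and 58.8 and 62.0 with MigR1-Cre. The groups of the Lef1F/F line did not overlap, and even its MigR1-Cre arrays stayed above all 4 arrays of the E2a-/- line. With Cre in that line, Rtp4 decreased by 0.57 ± 0.06 on the log2 scale (SE, 2 arrays per group, adjusted p = 0.0163), which is 1.49-fold. The call was lost when any of the 8 arrays was left out (adjusted p between 0.0614 and 0.132) and when the 4 arrays of the line were fitted alone (0.384). The other probe set of Rtp4 was dim (41.8 to 49.8) and differed by -0.08 (adjusted p = 1).

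Thus 1 of 34 members (2.94%) was lower and 0 were higher, compared with 0.22% lower and 0.066% higher among the 18193 named genes. The limma p before adjustment was under 0.05 for 8 of the 34 members and for 1143 of all named genes, and with trend and robust moderation the counts were again 1 and 0. The median difference of the members was -0.043 and that of all named genes -0.0011 on the log2 scale, with medians of the absolute difference of 0.112 and 0.055. After Rtp4, the members with the smallest p were Ifi35 and Mx1, and neither passed. Ifi35, which encodes a regulator of innate signaling, read 809 and 764 with MigR1 and 691 and 693 with MigR1-Cre, a difference of -0.18 ± 0.06 (adjusted p = 0.753). Mx1, a gene of the dynamin-like GTPase family, read 122 and 131 with MigR1 and 161 and 157 with MigR1-Cre. The difference was 0.33 ± 0.10 (adjusted p = 0.755), and protein was not measured. In neither gene did the groups overlap. Mx2, the paralog of Mx1, lay in the same direction at 0.25 ± 0.09 (adjusted p = 0.905), and the Ifit genes lay in the other, with differences of -0.22, -0.28 and -0.12 for Ifit1, Ifit2 and Ifit3. The 6 sensors and their regulators ranged from -0.24 (Ifih1) to 0.18 (Trim25) and the 4 antigen presentation genes from -0.12 (Tap1) to 0.04 (Psmb8), and none passed.

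**Figure D1:**
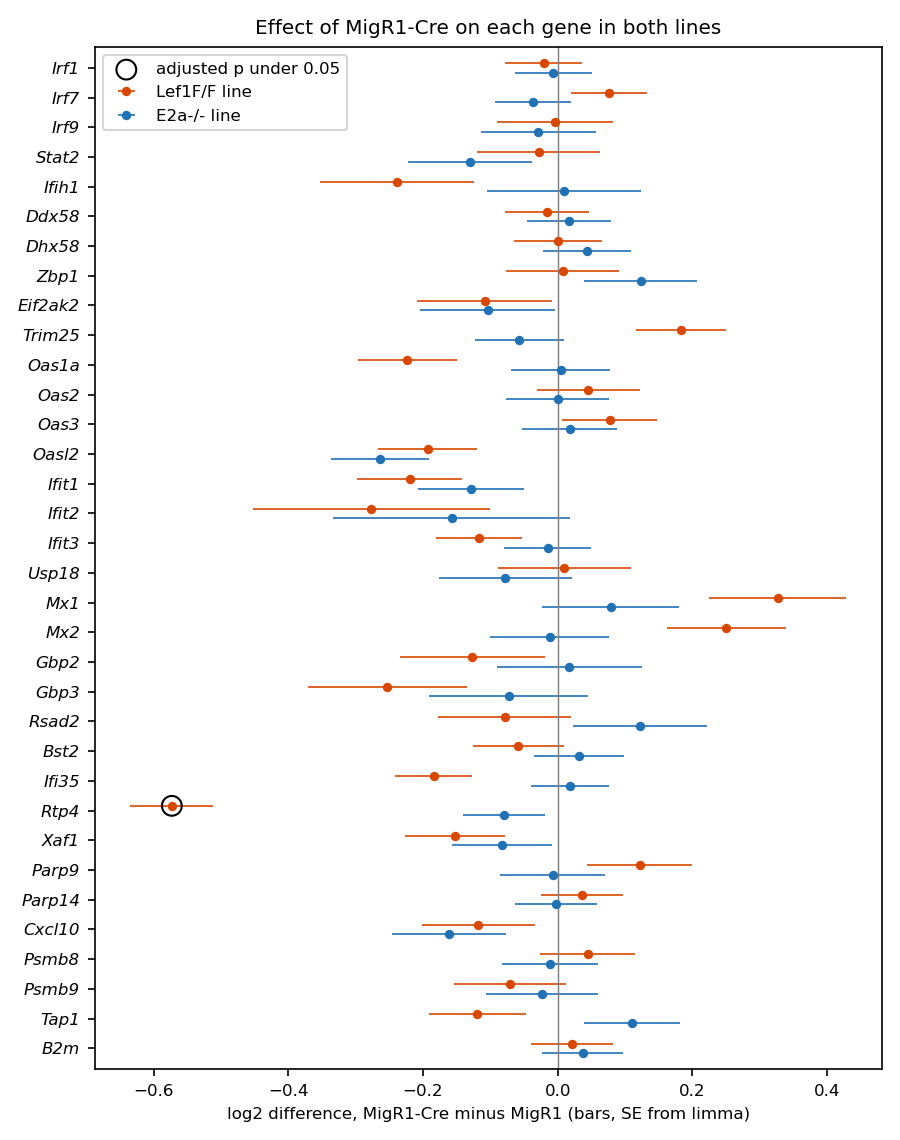
Log2 difference between MigR1-Cre and MigR1 arrays for the 34 measured genes in the Lef1F/F line (orange) and the E2a-/- line (blue). Points are limma estimates from 2 arrays per group, bars are standard errors, and a black ring marks an adjusted p under 0.05. Rtp4 in the Lef1F/F line is the ringed point, at -0.57, and the other 33 genes of that line lie between -0.28 and 0.33.

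In the E2a-/- line, where Cre has no loxP sites in Lef1, 0 of 34 members passed, as did 0% of the named genes. The limma p before adjustment was under 0.05 for 1 member, Oasl2, and for 309 of the 18193 named genes. With trend and robust moderation 0 members passed. Oasl2 encodes an oligoadenylate synthetase-like protein and read 59.0 and 64.8 with MigR1 and 49.3 and 53.8 with MigR1-Cre, a difference of -0.26 ± 0.07 (adjusted p = 1). Cxcl10 (-0.16 ± 0.08) and Ifit1 (-0.13 ± 0.08), both dim, followed in order of p and did not pass either (adjusted p = 1 for both). The median absolute difference of the members was 0.037 in this line. Between arrays of the same group, the SD of the members' log2 differences was 0.10 for MigR1 and 0.13 for MigR1-Cre in the E2a-/- line, and 0.14 and 0.15 in the Lef1F/F line.

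The test of the difference between both Cre effects, which asks whether an effect belongs to the Lef1F/F line, passed for 0 members and for 0.033% of named genes. With trend and robust moderation it passed for 0 members as well. The limma p before adjustment was under 0.05 for 3 of 34 members, Rtp4, Trim25 and Ifi35, and for 746 of the 18193 named genes. For Rtp4 the effects were -0.57 in the Lef1F/F line and -0.08 in the E2a-/- line, and they differed by -0.49 ± 0.09 (adjusted p = 0.343). For Trim25, which encodes the ubiquitin ligase that activates RIG-I, they were 0.18 and -0.06 and differed by 0.24 ± 0.09 (adjusted p = 1). For Ifi35 they were -0.18 and 0.02 and differed by -0.20 ± 0.08 (adjusted p = 1). The lower Rtp4 in the Lef1F/F line is hence not shown to differ from the effect of Cre alone.

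The lines themselves, in contrast, differed in 17 of the 34 members, in both directions, when the 4 arrays of each line were compared. Among them 11 (32.4%) were higher in the Lef1F/F line and 6 (17.6%) were lower, compared with 12.9% higher and 12.1% lower among all named genes. The median difference was 0.089 on the log2 scale, with a median absolute difference of 0.19, against -0.0019 and 0.072 for all named genes. With 1 line per genotype, these counts describe the lines and say nothing of Lef1. Fewer cells of a kind and less RNA per cell cannot be told apart in these bulk samples. The comparison shares its arrays with the Cre comparisons.

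**Figure D2:**
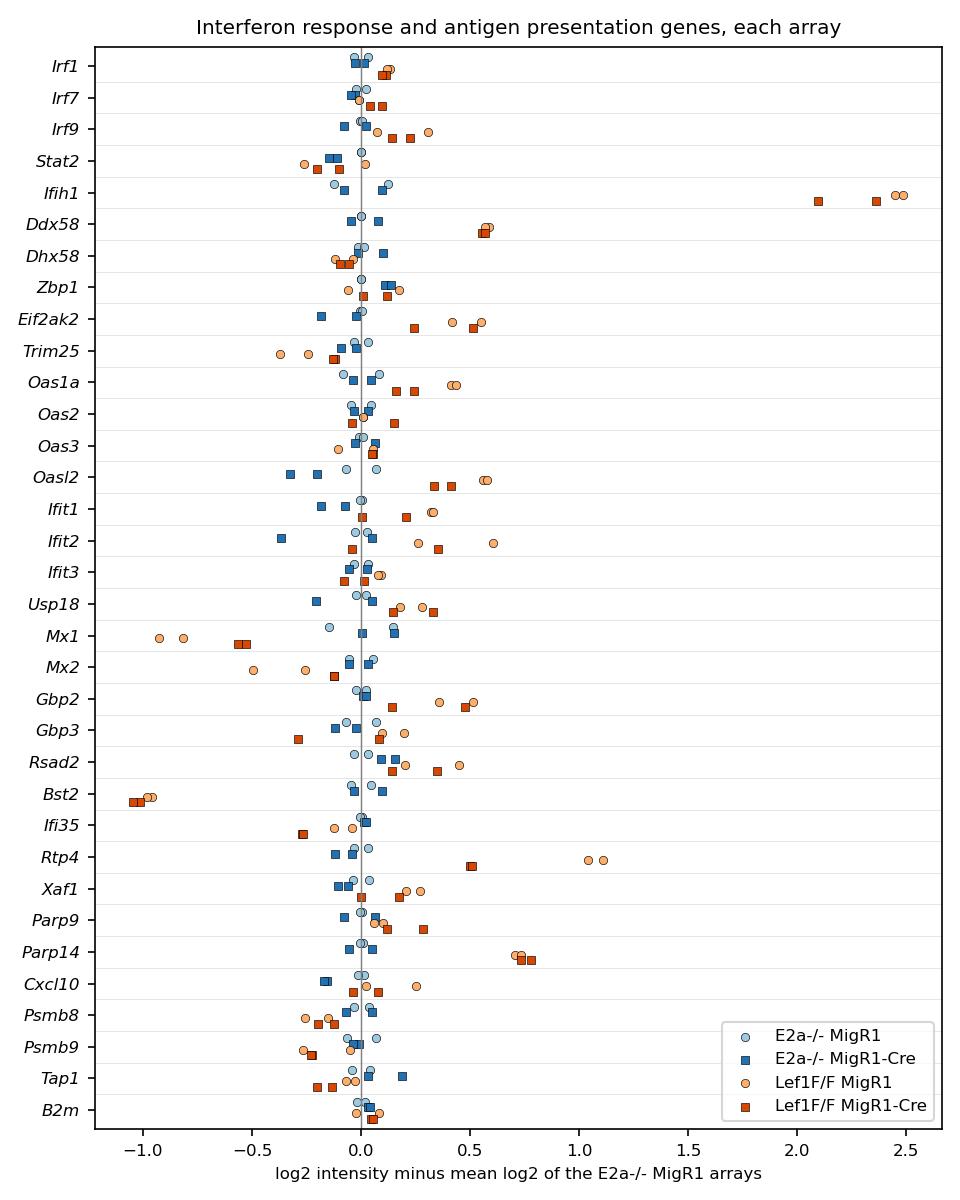
Each array of the 34 measured genes as the log2 intensity minus the mean log2 intensity of the E2a-/- MigR1 arrays of that gene, with circles for MigR1 and squares for MigR1-Cre, blue for the E2a-/- line and orange for the Lef1F/F line. Ifih1 stands above 2 in all 4 Lef1F/F arrays, Bst2 stands near -1, and B2m lies close to 0.

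The RNA sensors held the member with the greatest difference, Ifih1, which encodes MDA5, the sensor of long double-stranded RNA. Ifih1 read 84.2, 70.9, 82.6 and 73.3 in the E2a-/- line and 421, 433, 330 and 397 in the Lef1F/F line (in each line MigR1 arrays before MigR1-Cre arrays, an order kept below). In the E2a-/- line it was thus below the median of the arrays and in the Lef1F/F line well above it, with no overlap. It was 5.07-fold higher in the Lef1F/F line, with a log2 difference of 2.34 ± 0.08 (SE, n = 4 against 4, adjusted p = 5.6e-07). Ddx58 encodes RIG-I, the sensor of short RNA ends, and read 88.3, 88.3, 93.3 and 85.5 against 132, 131, 130 and 131. The 4 Lef1F/F arrays were nearly level, and Ddx58 was 1.48-fold higher (0.56 ± 0.04, adjusted p = 6.0e-05). Its other probe sets were dimmer, at 0.27 (adjusted p = 0.00204) and 0.07 (adjusted p = 0.475). Eif2ak2 encodes PKR, the kinase that halts translation on double-stranded RNA, and read 273, 275, 270 and 241 against 366, 402, 324 and 391. These ranges did not overlap, and Eif2ak2 was 1.40-fold higher (0.48 ± 0.07, adjusted p = 0.00193), with its other probe sets at 0.50 and 0.72, both past the threshold. Trim25 was the sensor regulator that was lower, at 1434 to 1705 in the Lef1F/F line and 1741 to 1898 in the E2a-/- line (-0.19 ± 0.05, adjusted p = 0.0242), a call lost in 6 of the 8 fits that left out 1 array. The other probe sets of Trim25 were at -0.21 (limma adjusted p = 0.0466) and, dimmer and not past the threshold, at -0.11 (limma adjusted p = 0.168). The remaining pair, Dhx58, which encodes the regulatory helicase LGP2, and Zbp1, a sensor of Z-form nucleic acids, did not pass, at -0.10 and -0.0019.

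Among oligoadenylate synthetases, which activate the nuclease RNase L, Oasl2 and Oas1a were higher and Oas2 and Oas3 did not pass. Oasl2 read 59.0, 64.8, 49.3 and 53.8 against 91.0, 92.2, 78.0 and 82.3. All values were low, but the lowest Lef1F/F array exceeded the highest E2a-/- array, and Oasl2 was 1.52-fold higher (0.60 ± 0.05, adjusted p = 9.9e-05). Oas1a read 170, 152, 156 and 166 against 214, 217, 190 and 179. Its MigR1-Cre arrays were the lower ones in the Lef1F/F line, and the difference was 1.24-fold (0.31 ± 0.05, adjusted p = 0.00381). Oas3, whose ISRE core begins 75 bases before the start site (20 bases in Oas1a), differed by 0.0043 (adjusted p = 0.972), and Oas2 by 0.03 (adjusted p = 0.781).

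Of the Ifit genes, whose products bind foreign RNA ends, Ifit1 passed at a low level, with 61.0, 60.6, 57.8 and 53.5 against 75.9, 76.4, 61.0 and 70.1. The lowest Lef1F/F array lay just above the highest E2a-/- array, and the difference was 1.21-fold (0.28 ± 0.06, adjusted p = 0.00867). Ifit2 read 518, 537, 547 and 409 against 631, 802, 513 and 672. The ranges overlapped and the difference of 0.37 ± 0.12 did not pass (adjusted p = 0.0745). Ifit3, next to Ifit2 on chromosome 19 and with 2 ISRE cores like Ifit1, differed by 0.03 (adjusted p = 0.726). Usp18 encodes the protease that removes ISG15 from proteins and dampens receptor signaling, and it read 92.6, 89.9, 94.4 and 79.2 against 103, 111, 115 and 101. It was 1.21-fold higher (0.27 ± 0.07, adjusted p = 0.0267), a call that was lost in 5 of the 8 fits that left out 1 array (highest adjusted p = 0.0993).

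The GTPases went in opposite directions. Mx1 read 256, 209, 232 and 257 in the E2a-/- line against 122, 131, 161 and 157 in the Lef1F/F line, in which the MigR1 arrays were the lowest. It was 1.68-fold lower in the Lef1F/F line (-0.75 ± 0.07, adjusted p = 1.9e-04). Mx2 was lower by less, at 133 to 172 against 180.4 to 195 (-0.24 ± 0.06, adjusted p = 0.0262), and this call was lost in 5 of the 8 fits (highest adjusted p = 0.111). Gbp2, a guanylate-binding protein gene induced mainly by interferon gamma, was higher and read 84.6, 87.4, 86.6 and 87.5 against 110, 123, 94.9 and 120. The E2a-/- arrays were close together while the Lef1F/F arrays were spread, and the difference was 1.29-fold (0.36 ± 0.08, adjusted p = 0.0111), with its other probe set at 0.33 (adjusted p = 0.0039). Gbp2 lost its call without array 1 of the E2a-/- MigR1 group (adjusted p = 0.055). Gbp3, next but one to Gbp2 on chromosome 3, differed by 0.06 (adjusted p = 0.736).

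Among the other antiviral effectors, Bst2 was the clearest case of a lower level. Bst2 encodes tetherin, which holds budding virions at the cell surface, and read 839, 892, 845 and 926 in the E2a-/- line against 445, 437, 428 and 419 in the Lef1F/F line. It was 2.02-fold lower (-1.02 ± 0.05, adjusted p = 3.3e-06) and its promoter, printed above, held overlapping ISRE cores 130 bases before the start site. Rtp4 was 1.78-fold higher in the Lef1F/F line over both viruses (0.83 ± 0.04, adjusted p = 6.3e-06), while its dim other probe set was at 0.06 (adjusted p = 0.527). For the brighter probe set of Rtp4, the line difference was 1.08 ± 0.06 between MigR1 arrays and 0.58 ± 0.06 between MigR1-Cre arrays. Parp14, which encodes a mono-ADP-ribosyltransferase, read 158, 156, 162 and 151 against 256, 260, 269 and 260. It was level across both viruses and 1.67-fold higher (0.74 ± 0.04, adjusted p = 1.2e-05), while its dim other probe set was at -0.01. Xaf1, a pro-apoptotic gene, was at 118 to 143 against 110 to 122, ranges that overlapped (0.20 ± 0.05, adjusted p = 0.028, lost in 6 of the 8 fits that left out 1 array). Ifi35 was lower, at 691 to 809 against 830 to 845 (-0.18 ± 0.04, adjusted p = 0.0138, lost in 2 of the 8). The other probe sets of Ifi35 were at -0.16 (limma adjusted p = 0.0389) and, not past the threshold, at -0.12 (limma adjusted p = 0.275). Rsad2, which encodes viperin, did not pass (0.22 ± 0.07, adjusted p = 0.0598), but another of its 3 probe sets did (0.31, adjusted p = 0.02). Parp9 differed by 0.14 (adjusted p = 0.115).

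**Figure D3:**
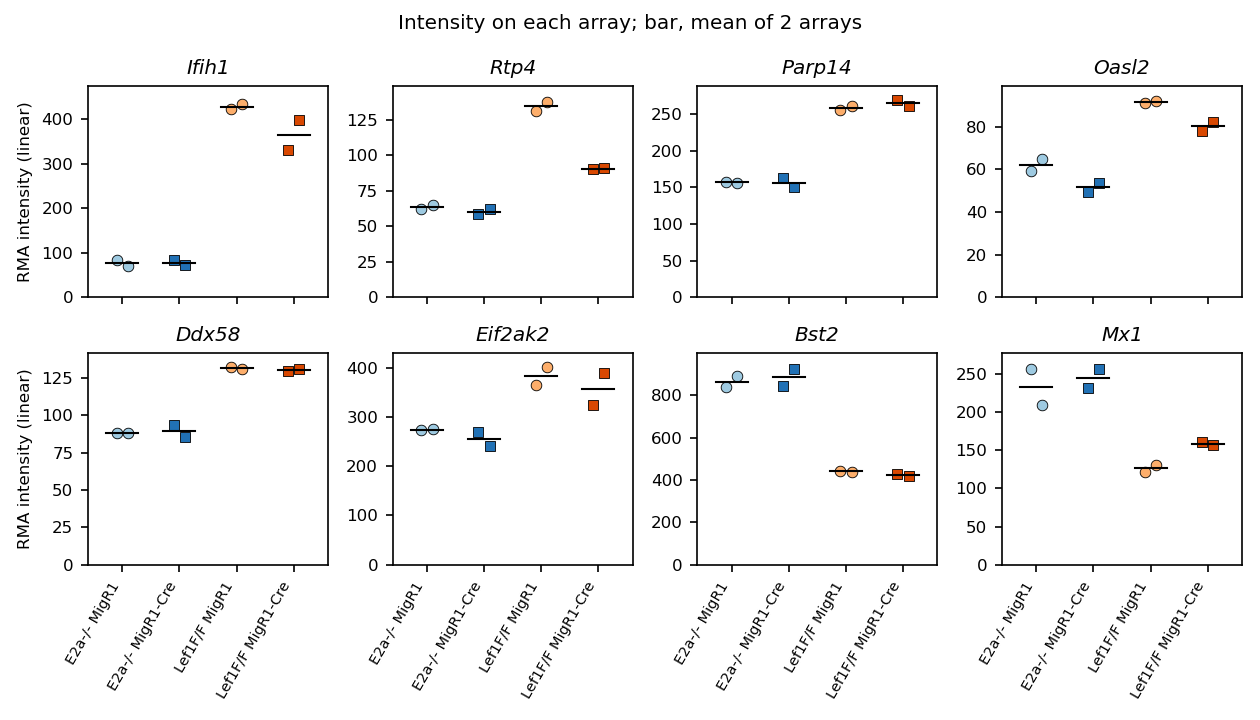
RMA intensity on a linear scale that starts at 0 for 8 members in each of the 4 groups, with a point per array and a bar at the mean of 2 arrays. Ifih1, Rtp4, Parp14, Oasl2, Ddx58 and Eif2ak2 are higher and Bst2 and Mx1 lower in every Lef1F/F array than in any E2a-/- array. The 8 genes shown are those that passed between lines within each virus, so their separation is no added evidence. How many of all named genes separate in this way was not counted. The lower Rtp4 with MigR1-Cre in the Lef1F/F line, from 131 and 138 to 90.1 and 90.7, is the effect of Cre that passed the test.

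The same arrays were also compared between lines within each virus, which is not an independent test, and 8 of these genes passed in both. The share of all named genes that passed in both was not counted. Ifih1, Ddx58, Eif2ak2, Oasl2, Rtp4 and Parp14 were higher, and Mx1 and Bst2 lower, both between the MigR1 arrays alone and between the MigR1-Cre arrays alone (limma, adjusted p of 0.0183 or less for each). Between MigR1 arrays 9 of the 34 members were higher and 4 lower, compared with 8.71% and 5.88% of all named genes. Between MigR1-Cre arrays 6 were higher and 4 lower, compared with 8.6% and 7.46%. Oas1a (adjusted p = 0.146), Gbp2 (0.139) and Ifit1 (0.105) were among the 5 higher genes that did not pass between MigR1-Cre arrays, and Trim25 and Mx2 passed between MigR1 arrays and not between MigR1-Cre arrays. Conversely, Ifi35 passed between MigR1-Cre arrays (-0.29, adjusted p = 0.0146) and not between MigR1 arrays (-0.08, adjusted p = 0.487), as did Tap1 (-0.28, adjusted p = 0.0422, and -0.05, adjusted p = 0.791), which did not pass over both viruses. Psmb8 passed in neither (adjusted p = 0.124 and 0.257). Whether these differences changed with the virus is the test of both Cre effects above, which passed for 0 members. For Oas1a the log2 difference was 0.42 between MigR1 arrays and 0.20 between MigR1-Cre arrays.

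Of the 4 members of antigen presentation, Psmb8 passed and the other three did not. It was lower in the Lef1F/F line, with 4107, 4308, 4005 and 4350 against 3781, 3519, 3855 and 3672. These ranges did not overlap, but the difference was 1.13-fold (-0.18 ± 0.05, adjusted p = 0.0398) and was lost in 5 of the 8 fits that left out 1 array. The call was also lost when all probe sets of a gene were averaged and when quantile normalization was repeated. The other probe set of Psmb8, at 154 to 182, differed by -0.01 (adjusted p = 0.938). Psmb9, another immunoproteasome subunit (-0.18 ± 0.06, adjusted p = 0.0675), and Tap1, a chain of the peptide transporter (-0.16 ± 0.05, adjusted p = 0.0571), did not pass over both viruses. Psmb9, Tap1, Psmb8 and Tap2 are consecutive coding genes on chromosome 17, and Tap2, which is not a member, was at -0.28 ± 0.05 (adjusted p = 0.00534). B2m differed by 0.02 ± 0.04 (adjusted p = 0.827), with an ISRE core 139 bases before its start site. The 4 signaling and transcription factor genes, Irf1, Irf7, Irf9 and Stat2, did not pass. Irf9, a DNA-binding subunit of the complex at the ISRE, came nearest at 0.20 ± 0.06 (adjusted p = 0.0521), with 144, 145, 137 and 146 against 178, 152, 169 and 159.

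An ISRE core before the start site was found in genes of each outcome. Among the 25 measured members with a promoter in the table, it was held by 3 of 8 that were higher in the Lef1F/F line (Oas1a, Ifit1 and Gbp2), by 1 of 4 that were lower (Bst2) and by 7 of 13 that did not pass (B2m, Gbp3, Cxcl10, Oas3, Stat2, Rsad2 and Ifit3). Ifih1, Ddx58, Oasl2 and Eif2ak2 held none in this window, which says only that these letters are not in those 250 bases. These groups are too small to compare. No promoter was available for Rtp4, Parp14, Usp18, Mx1 and Mx2, which passed between the lines. The same was true of Parp9, Dhx58, Zbp1 and Oas2, which did not pass.

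Other genes of the same pathway, in lists of their own, also went both ways between the lines, and 34 of 86 passed, compared with 25% of all named genes (12.9% higher and 12.1% lower, the shares beside which the counts per list below stand). For the effect of Cre 0 of the 86 passed with limma in the Lef1F/F line (11 with p before adjustment under 0.05) and 0 in the E2a-/- line (3 such), and 0 passed for the difference of both effects (6 such), as was the case with trend and robust moderation. Among the 18193 named genes, the limma p before adjustment was under 0.05 for 1143, 309 and 746 in that order. Of 30 other interferon-induced genes, 8 were higher and 1 was lower in the Lef1F/F line. Ifitm2, which encodes a membrane protein that blocks viral fusion, read 56.7, 60.7, 64.6 and 67.9 against 452, 441, 536 and 509 (2.95 ± 0.05, adjusted p = 8.6e-09). Gbp7 (0.55), Dtx3l (0.52) and Lgals9 (0.51, lost in 1 of the 8 fits that left out 1 array) followed, and Ifi47 was lower (-0.38). Dtx3l, the partner ubiquitin ligase of PARP9, lies between Parp14 and Parp9 on chromosome 16, where the differences were 0.74, 0.52 and 0.14 in that order.

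Of 13 receptor and transducer genes, 2 were higher and 4 lower. Jak2, a receptor kinase gene, read 398, 419, 432 and 399 against 559, 664, 584 and 656 (0.58 ± 0.07, adjusted p = 6.5e-04), and Irf2 was higher by 0.34 (lost in 1 of the 8). Socs1, the feedback inhibitor of JAK kinases, read 216, 207, 208 and 201 against 142, 127, 139 and 133 (-0.62 ± 0.05, adjusted p = 7.0e-05). Socs1 was thus lower and Jak2 higher in every Lef1F/F array, and Irf8 was lower (-0.33). None of the 6 interferon genes passed (0 with unadjusted p under 0.05), with differences between -0.08 and 0.04. Of 12 upstream sensing adaptors, 3 were higher and 2 lower. Myd88, the adaptor of Toll-like receptors, read 77.9, 79.4, 84.1 and 74.6 against 240, 203, 181 and 172 (1.32 ± 0.07, adjusted p = 4.8e-06). In contrast Cgas, the sensor of cytosolic DNA, read 566, 547, 573 and 519 against 234, 232, 224 and 220 (-1.28 ± 0.05, adjusted p = 7.3e-07), and its other probe set gave -1.16. Sting1, the adaptor that receives the product of Cgas, was higher (0.49 ± 0.05, adjusted p = 1.5e-04), the opposite direction to Cgas.

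Of 14 other class I genes, 6 were higher and 2 lower. H2-D1 and H2-K1, the class I heavy chains, were higher by 1.21 ± 0.09 and 1.12 ± 0.06. Most of their probe sets are of the kind that shares probes with related genes, so that these values are uncertain, and the 9 probe sets of H2-D1 ranged from -0.01 to 1.29. Psme1, which encodes a proteasome activator subunit, was higher by 0.54 ± 0.05, and H2-M3, a nonclassical heavy chain, by 0.59 ± 0.06. The immunoproteasome subunit Psmb10 was higher by 0.35 while the members Psmb8 and Psmb9 were at -0.18. Of the constitutive counterparts, Psmb5 was higher by 0.32, and Psmb6 (-0.33, lost in 3 of the 8 fits that left out 1 array) and Psmb7 (-0.18, lost in 6) were lower. Of 8 class II genes, 2 were higher (H2-Ab1 by 0.40 and H2-Oa by 0.20, the latter lost in 6 of the 8 fits that left out 1 array, with a highest adjusted p of 0.119) and Cd74 was lower (-0.31), at intensities of 44.3 to 316 for the list.

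**Figure D4:**
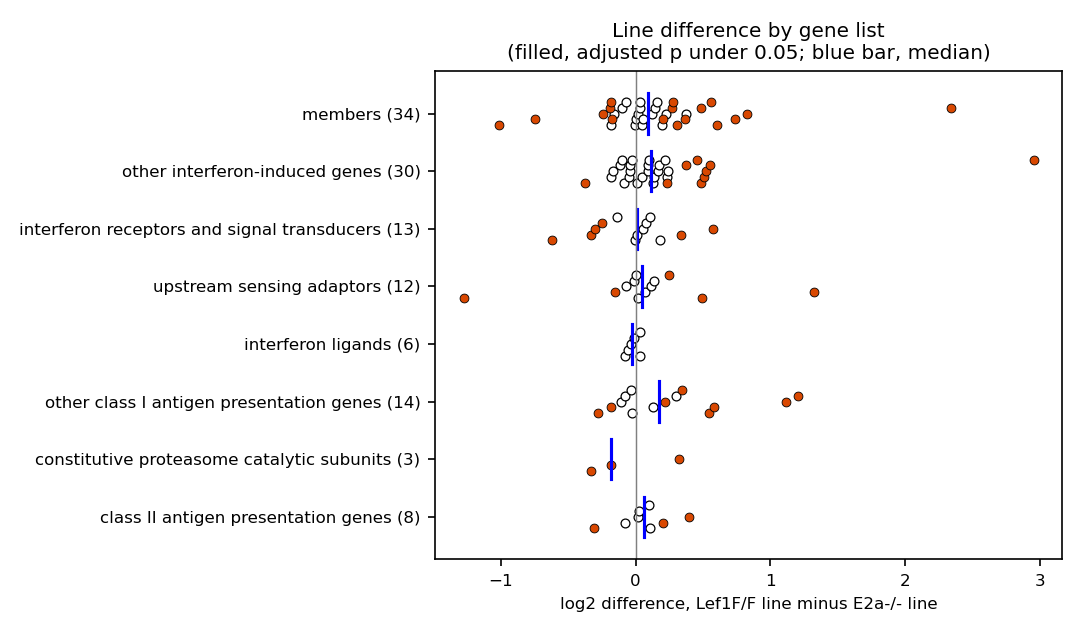
Log2 difference between the Lef1F/F and E2a-/- lines, 4 arrays each, for the members and for 7 related gene lists, with a point per gene, filled where the adjusted p was under 0.05, and a blue bar at the median. The members spread from -1.02 (Bst2) to 2.34 (Ifih1) around a median of 0.089, and the 6 interferon genes stay within 0.08 of 0.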

How the data were processed

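Total RNA of sorted cells was hybridised to Affymetrix Mouse Genome 430 2.0 arrays. The deposited values are linear intensity, which the authors had normalised by RMA (RMAExpress, version not given in the sources used here), and nothing was averaged over replicates. Array medians were between 88.9 and 91.0, and precision is limited by 2 arrays per group. Intensities were converted to log2 without an offset, since the values were linear and not log2 as had been assumed. Of 45037 probe sets, 34945 carry 1 gene symbol in the platform annotation, 932 several and 9160 none, and a gene was represented by its brightest probe set with that symbol alone. The 34 members have 57 probe sets. Group means of all 8 arrays were fitted with limma 3.58.1 in R 4.3.3 (lmFit, eBayes, 4 residual degrees of freedom), two-sided, adjusted over all probe sets within a contrast. The fit was also run on simulated data with independent noise and no difference between lines, and no result here rests on it. Values in every array are given for most members past the threshold in a contrast (at most the 12 with the largest difference). They are also given for most members among the 3 with the smallest p, and for some genes of the other lists. The rest are given by range, by difference or in the counts alone. Members and lists were chosen with earlier results of these data known, and in part overlap with genes already described from them. Gene order and promoters are from RefSeq (GRCm38.p6). As alternatives, dim probe sets were filtered out (29 members passed), eBayes was run with trend and robust, quantile normalization was repeated, arrays were weighted, all probe sets of each gene were averaged, each array was left out, and the arrays of the line alone, fold thresholds and a stricter adjusted p were used.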

Additional observations from a re-analysis of the deposited data

How the results depend on the processing

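Rtp4, the member called lower with Cre in the Lef1F/F line, kept its call when dim probe sets were filtered out, eBayes was run with trend and robust, quantile normalization was repeated, arrays were weighted, or probe sets were averaged (adjusted p 0.00711 to 0.0472). The count was 0 when only the 4 arrays of the line were fitted (adjusted p = 0.384), when a fold above 1.5 was required, at an adjusted p of 0.01, and when any array was left out (0 to 0). Between lines, a fold above 1.5 left 2 higher members (Ifih1 and Rtp4) and 1 lower (Bst2), and a fold above 2 left 1 higher (Ifih1) and 0 lower. At an adjusted p of 0.01, 8 higher and 2 lower members were called. The MigR1-Cre arrays alone gave 6 higher members. Leaving out 1 array gave 8 to 13 higher and 2 to 6 lower members, the 2 being Bst2 and Mx1, which were called in each of the 8 cases. The filter, trend and robust moderation, repeated normalization, weights and averaging gave 10 to 14 higher and 6 lower members. No named gene changed direction under these settings, and the cause of the lost calls was not tested. A block for arrays 1 and 2 of the Lef1F/F line, an alternative chosen after seeing the data because the labels pair no samples, gave 16 higher and 8 lower members and an adjusted p of 9.2e-04 for Rtp4. Depth cannot be stated for arrays, and for the dim members a difference is compressed.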
